A study of Mus musculus with 12 samples.

Results

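Sycp3 and Tex14 are 2 genes known from germ cells that had a row among the 16670 genes listed for fat tissue of female mice. They were chosen by their own levels in these libraries, which differ between cell fractions and between genotype labels, so those levels are given below as a description, without tests. The 12 libraries are bulk RNA sequencing of inguinal white adipose tissue, the subcutaneous fat of the groin, from female C57BL/6 mice whose age is not given in the sources used here. There were 4 groups of 3 libraries: mature adipocytes labelled Kdm5c+/-, mature adipocytes labelled Kdm5c+/+ (wild type), stromal vascular cells labelled Kdm5c+/-, and stromal vascular cells labelled Kdm5c+/+ (wild type). Each library came from the pooled tissue of 2 mice, digested with collagenase and spun into a floating layer of mature adipocytes and a pellet of stromal vascular cells, which mixes progenitor, vascular and immune cells. The comparisons ask how Kdm5c+/- fat differs from wild-type fat in each fraction, and how the fractions differ.

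Sycp3 encodes a structural protein of the lateral elements of the synaptonemal complex, the protein axis on which homologous chromosomes pair in meiosis. Tex14 encodes a protein of the intercellular bridges that join dividing germ cells, where it binds Cep55 and keeps the final cut of cytokinesis from taking place. In mouse somatic cells, genes of this kind are kept silent by promoter DNA methylation and by a Polycomb complex that contains E2f6, Mga and Max and binds E2F and E-box sequences. Kdm5c, a demethylase of histone H3 lysine 4, is known as another repressor of germ cell genes in mouse brain and embryonic stem cells.

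The promoters are shown because the known repressors bind them. Sycp3 lies on the plus strand of chromosome 10 and Tex14 on the plus strand of chromosome 11. Each window runs from 250 bases before to 50 bases after the start of the RefSeq transcript on the plus strand of GRCm38.p6, chr10:88459337-88459636 for Sycp3 and chr11:87404815-87405114 for Tex14. Capitals mark the E2F letters, searched as GCGGGAA and, for the other strand, as TTCCCGC. They also mark the E-box letters CACGTG, which read the same on both strands.
Sycp3: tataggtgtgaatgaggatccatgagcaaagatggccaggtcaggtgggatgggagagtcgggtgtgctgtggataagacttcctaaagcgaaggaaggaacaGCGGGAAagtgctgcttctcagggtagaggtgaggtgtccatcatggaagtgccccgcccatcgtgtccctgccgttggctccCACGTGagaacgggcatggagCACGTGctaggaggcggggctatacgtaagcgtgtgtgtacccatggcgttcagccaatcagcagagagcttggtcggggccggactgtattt
Tex14: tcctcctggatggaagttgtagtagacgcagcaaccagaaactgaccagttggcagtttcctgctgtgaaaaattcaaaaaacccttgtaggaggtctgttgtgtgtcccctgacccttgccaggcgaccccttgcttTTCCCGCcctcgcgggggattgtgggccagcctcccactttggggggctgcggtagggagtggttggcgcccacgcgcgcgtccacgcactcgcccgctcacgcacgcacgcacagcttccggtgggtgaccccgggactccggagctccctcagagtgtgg
The Sycp3 window held GCGGGAA at bases 104 to 110, and the E-box letters at bases 187 to 192 and 208 to 213. The Tex14 window held TTCCCGC at bases 139 to 145 and did not hold the E-box letters. Of 32851 RefSeq promoter windows of the same 300 bases, 4.60% held the E2F letters on either strand, 7.15% held the E-box letters and 0.457% held both. The Sycp3 window had 15 CpG dinucleotides and 57% G and C, and the Tex14 window 20 CpG and 62.3% G and C, against a median of 7 CpG over all windows. Fewer CpG than in the Sycp3 window were found in 65.4% of windows, and fewer than in the Tex14 window in 73.5%. A match of letters is a description of the sequence and not a measured site.

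Levels are in CPM, reads scaled to a total of 1000000 per library over the genes listed. Libraries held 21836878 to 29434125 reads, so 3 reads came to between 0.102 and 0.137 CPM. Differences are between mean log2(CPM + 1) values, given ± SE, and this scale understates the change of genes near 0. Kdm5c itself averaged 169 ± 18.4 CPM in Kdm5c+/- and 178 ± 2.99 CPM in wild-type mature adipocytes, and 186 ± 9.89 CPM in Kdm5c+/- and 185 ± 4.09 CPM in wild-type stromal vascular libraries (SD, n = 3 each). These means do not show a loss under the Kdm5c+/- label, so Kdm5c+/- stands throughout for the libraries labelled so. The labels do not describe the allele, and reads summed over all of Kdm5c do not tell whether a part of it is missing. The fractions were what their names say: 13 of 13 adipocyte markers were higher in mature adipocytes and 15 of 15 stromal vascular markers with a row were lower.

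Sycp3 was a gene of the mature adipocyte fraction, and within it higher in the Kdm5c+/- libraries. Its level was 22.5, 13.8 and 22.0 CPM in Kdm5c+/- mature adipocytes, from 612, 345 and 562 reads. It was 11.9, 7.98 and 9.15 CPM in wild-type mature adipocytes, from 288, 235 and 237 reads. All 3 Kdm5c+/- libraries lay above all 3 wild-type libraries, the second Kdm5c+/- library closest to them. The means were 19.4 ± 4.87 CPM in Kdm5c+/- and 9.68 ± 2.01 CPM in wild type (SD, n = 3 each), a ratio of 2.01 and a log2 difference of 0.92 ± 0.27. Among all 16670 genes listed, 7.86% were likewise higher in every Kdm5c+/- mature adipocyte library. In bulk libraries, fewer cells of a type and less RNA per cell cannot be told apart.

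In stromal vascular libraries Sycp3 was close to the counting floor. Its level was 1.02, 0.504 and 0.329 CPM in Kdm5c+/- libraries, from 28, 11 and 8 reads. It was 0.358, 0.269 and 0.363 CPM in wild-type libraries, from 8, 6 and 10 reads. The genotype labels overlapped there, and the first Kdm5c+/- library stood above the other 5. The means were 0.618 ± 0.361 CPM in Kdm5c+/- and 0.330 ± 0.0527 CPM in wild type (SD, n = 3 each), and the log2 difference of 0.26 ± 0.18 came to 0.088 without that first library. Per kilobase of exon, the Sycp3 level averaged 15.4 CPM in Kdm5c+/- and 7.66 CPM in wild-type mature adipocytes, 0.489 CPM in Kdm5c+/- and 0.261 CPM in wild-type stromal vascular libraries. By mean CPM per kilobase, this gene of meiosis lay above 84.3% of the 15866 genes with an annotated length in Kdm5c+/- mature adipocytes and above 71.5% in wild type. Of the Sycp3 exon bases that this measure divides by, 52.2% are shared with the gene Chpt1 on the other strand.

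Between fractions, the Sycp3 levels did not overlap in either genotype. The log2 difference, mature adipocytes minus stromal vascular, was 3.32 ± 0.16, and the ratio of mean CPM was 31.4 in Kdm5c+/- and 29.3 in wild type. Of all genes listed, 20.9% were higher in all 6 mature adipocyte libraries than in all 6 stromal vascular libraries, and 49.2% were lower in all 6. The order of the Sycp3 levels was Kdm5c+/- mature adipocytes, wild-type mature adipocytes, then both stromal vascular groups, which were not apart beyond their spread.

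Tex14 had the opposite distribution over the fractions and was higher under the Kdm5c+/- label in both. In stromal vascular libraries its level was 3.32, 5.22 and 3.86 CPM under the Kdm5c+/- label, from 91, 114 and 94 reads. It was 1.88, 0.943 and 1.38 CPM in wild type, from 42, 21 and 38 reads. The lowest Kdm5c+/- library was above the highest wild-type library. The means were 4.14 ± 0.978 CPM in Kdm5c+/- and 1.40 ± 0.468 CPM in wild type (SD, n = 3 each), a ratio of 2.95 and a log2 difference of 1.10 ± 0.23. Of all genes listed, 3.95% were higher in every Kdm5c+/- stromal vascular library.

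In mature adipocytes the Tex14 level was 0.991, 2.04 and 1.41 CPM in Kdm5c+/- libraries, from 27, 51 and 36 reads. It was 0.331, 0.102 and 0.309 CPM in wild-type libraries, from 8, 3 and 8 reads. The groups were again apart, but the wild-type values were near the counting floor, and the lowest, from 3 reads, had an exact Poisson interval of 0.0210 to 0.298 CPM at the 95% level, for counting error only. The means were 1.48 ± 0.529 CPM in Kdm5c+/- and 0.247 ± 0.126 CPM in wild type (SD, n = 3 each), a ratio of 5.99. The log2(CPM + 1) difference of 0.98 ± 0.20 became 1.79 with a pseudocount of 0.25. Tex14 was 1 of 81 genes (0.486% of those listed) that were higher in every Kdm5c+/- library of both fractions.

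Between fractions, Tex14 was lower in mature adipocytes within each genotype, at 35.8% of the stromal vascular mean in Kdm5c+/- and 17.6% in wild type. The log2 difference over both genotypes was -0.99 ± 0.15. The Kdm5c+/- mature adipocyte libraries (0.991 to 2.04 CPM) overlapped the wild-type stromal vascular ones (0.943 to 1.88 CPM), so these neighbours in the order were not apart beyond their spread. The Kdm5c+/- stromal vascular group stood above both, and the wild-type mature adipocyte group below both. Per kilobase of exon, Tex14 reached 0.825 CPM in Kdm5c+/- stromal vascular libraries, against 0.279 CPM in wild type. Its level per kilobase was 0.295 CPM in Kdm5c+/- and 0.0493 CPM in wild-type mature adipocytes, below that of Sycp3 in both. By that measure Tex14 lay above 24.6% of genes in Kdm5c+/- and 15.4% in wild-type stromal vascular libraries.

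**Figure D1:**
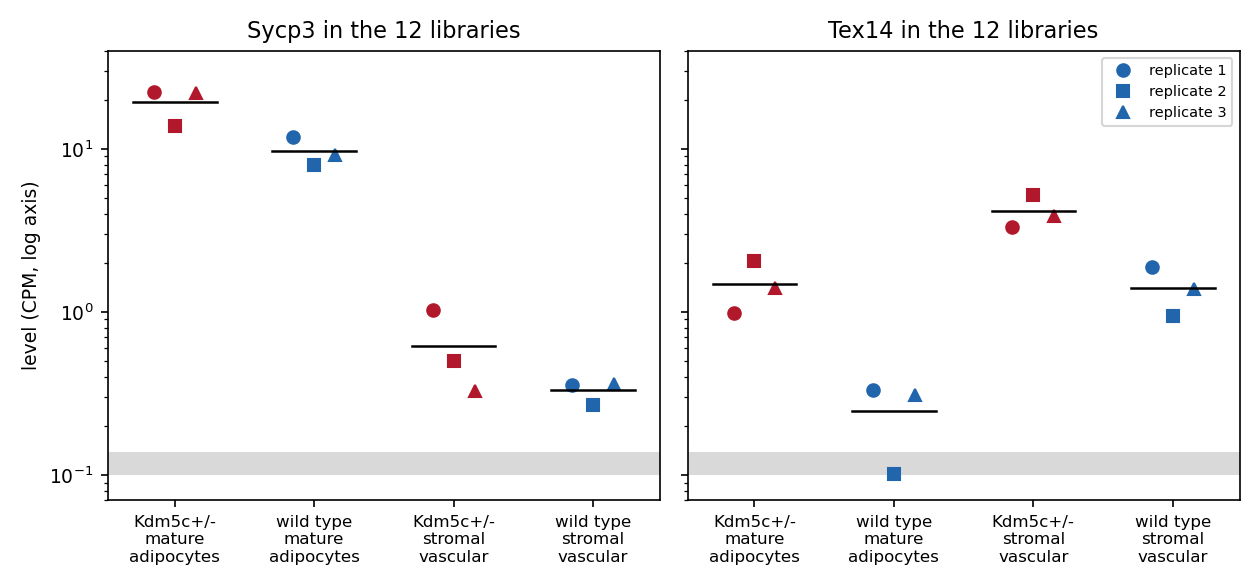
Level of Sycp3 and Tex14 in each of the 12 libraries, in CPM on a log axis. Points are libraries, black lines are group means of 3 libraries, red is Kdm5c+/- and blue wild type, and the grey band is the range of 3 reads (0.102 to 0.137 CPM). Sycp3 is highest in mature adipocytes and Tex14 in stromal vascular cells, and for Tex14 the Kdm5c+/- libraries lie above the wild-type ones in both fractions.

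The difference between the genotype differences, mature adipocytes minus stromal vascular, was 0.66 ± 0.32 for Sycp3 and -0.12 ± 0.30 for Tex14 on the log2(CPM + 1) scale. On whole reads with edgeR these values came to 0.083 for Sycp3 and 1.02 for Tex14, so neither size nor, for Tex14, sign held across scales. The fractions of one pool share a number, and the ratio of mature adipocyte to stromal vascular level was 22.0, 27.4 and 67.0 for Sycp3 in the Kdm5c+/- pools, against 33.3, 29.6 and 25.2 in wild-type pools. The third Kdm5c+/- pool was far above the other 5, and the rest of the pools overlapped.

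Across all genes, limma on log2(CPM + 1) with Benjamini-Hochberg adjustment called few differences between the genotype labels. In mature adipocytes 0 of 11913 genes tested passed an adjusted p of 0.05 (0% called), while 1737 had an unadjusted p under 0.05, and 1755 with edgeR, which also called 0. In stromal vascular cells 1 of 13792 passed (0.00725% called), Rps4l, a ribosomal protein S4 gene named after its value was seen, with a log2 difference of 1.06 (limma, adjusted p = 0.0347). The call was lost when any of the 6 libraries was left out (adjusted p of 0.118 to 0.314) and with the replicate block, and the adjusted p was 0.0270 to 0.345 over the other 7 alternatives, 5 of which kept it. At an unadjusted p there were 1043 with limma and 943 with edgeR, and edgeR called 1. A gene entered a fit when 3 of its libraries reached 1 CPM. In mature adipocytes Sycp3 passed this filter and Tex14 did not, and in stromal vascular cells Tex14 passed and Sycp3 did not, so 1 of 2 was tested in each. Both were tested in the fits over 12 libraries.

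The marker sums of both fractions moved with the genotype label. In mature adipocyte libraries the 13 adipocyte markers summed to 47867 to 58099 CPM in Kdm5c+/- and 41867 to 42584 CPM in wild type, with none at 0. The 15 stromal vascular markers summed to 154 to 257 CPM in Kdm5c+/- and 320 to 438 CPM in wild-type mature adipocytes, and to 11318 to 14257 CPM in Kdm5c+/- and 14422 to 15774 CPM in wild-type stromal vascular libraries, with none at 0 in any group. The adipocyte markers summed to 4723 to 8569 CPM in Kdm5c+/- and 5146 to 5929 CPM in wild-type stromal vascular libraries, with overlap. Per 10000 CPM of adipocyte markers, Sycp3 averaged 3.67 ± 1.16 CPM in Kdm5c+/- and 2.29 ± 0.499 CPM in wild-type mature adipocytes (SD, n = 3 each), and the groups then overlapped (2.38 CPM in the lowest Kdm5c+/- library, 2.84 CPM in the highest wild-type one). Of the 13 markers 10 had a higher and 3 (Lep, Plin1 and Slc2a4) a lower mean in Kdm5c+/- mature adipocytes. The complement factor gene Cfd (15401 ± 4382 CPM in Kdm5c+/- and 10523 ± 1221 CPM in wild type) and the fatty acid binding gene Fabp4 (12739 ± 613 CPM in Kdm5c+/- and 9797 ± 326 CPM in wild type) were much of the sum. Without Cfd and Fabp4, Sycp3 averaged 7.59 ± 2.09 CPM in Kdm5c+/- and 4.45 ± 1.21 CPM in wild type per 10000 CPM of the other 11, again with overlap. The part of cell makeup in the Sycp3 difference was not tested.

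Tex14 was higher and the stromal vascular marker sum lower under the Kdm5c+/- label in both fractions. Of the 15 markers 13 had a lower mean in each fraction, with Mrc1, a macrophage receptor gene (468 ± 79.9 CPM in Kdm5c+/- and 371 ± 38.1 CPM in wild type), and Pdgfra the exceptions in stromal vascular cells. The 10 markers of dividing cells summed to 26.8 to 32.5 CPM in Kdm5c+/- and 32.2 to 37.5 CPM in wild-type mature adipocytes, and to 135 to 170 CPM in Kdm5c+/- and 154 to 228 CPM in wild-type stromal vascular libraries. Markers of germ cells were low. Of 14 germ cell and oocyte markers 6 had a row, and their sum averaged 1.49 CPM in Kdm5c+/- and 1.81 CPM in wild-type mature adipocytes, and 2.10 CPM in Kdm5c+/- and 2.24 CPM in wild-type stromal vascular libraries, most of it from Gdf9, an oocyte growth factor (1.16 ± 0.154 CPM in Kdm5c+/- and 1.34 ± 0.394 CPM in wild-type mature adipocytes). Bmp15, another oocyte growth factor, was at 0 in all mature adipocyte libraries, and Dppa3 was at 0 in the Kdm5c+/- ones. The germ cell helicase gene Ddx4 averaged 0.144 ± 0.118 CPM in Kdm5c+/- and 0.318 ± 0.141 CPM in wild-type mature adipocytes. Per kilobase, Ddx4 had 0.0478 CPM in Kdm5c+/- and 0.105 CPM in wild-type mature adipocytes, below Sycp3 in both. Tex14 lay above Ddx4 by this measure in Kdm5c+/- mature adipocytes (0.295 CPM) and below it in wild type (0.0493 CPM). The 11 mammary epithelial markers summed to 92.5 to 153 CPM in Kdm5c+/- and 93.3 to 136 CPM in wild-type mature adipocytes, and to 131 to 449 CPM in Kdm5c+/- and 158 to 341 CPM in wild-type stromal vascular libraries. In mature adipocytes most of that sum was Esr1, the estrogen receptor gene (93.1 ± 28.1 CPM in Kdm5c+/- and 93.2 ± 18.1 CPM in wild type), while the epithelial gene Epcam had 0.103 ± 0.0218 CPM in Kdm5c+/- and 0.113 ± 0.0372 CPM in wild type.

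Each gene was also measured in the fraction where it was low, pool by pool, beside the markers of the other fraction. The stromal vascular level of Sycp3 was 4.55%, 3.65% and 1.49% of its mature adipocyte level in the Kdm5c+/- pools, where the median adipocyte marker had 4.03%, 4.13% and 1.71%. In the wild-type pools Sycp3 had 3.01%, 3.37% and 3.97%, and the median marker 3.40%, 1.41% and 1.86%. Sycp3 lay inside the range of the markers in each pool, but this range was wide. Its top was 30.7% to 51.0%, set by Fabp4 or Pparg. Sycp3 lay above 7, 3 and 6 of the 13 markers in the Kdm5c+/- pools and above 5, 7 and 7 in the wild-type pools. The mature adipocyte level of Tex14 was 29.8%, 39.1% and 36.5% of its stromal vascular level in Kdm5c+/- pools, against 17.6%, 10.8% and 22.4% in wild-type pools. The stromal vascular markers stayed lower, at medians of 1.08% to 2.50% and at most 8.55%, so that Tex14 lay above 15 of 15 in each pool. The wild-type shares of Tex14 rest on 8, 3 and 8 mature adipocyte reads. In the second wild-type pool, 3 reads have a 95% Poisson interval of 0.0210 to 0.298 CPM, beside 0.943 CPM in stromal vascular cells. The highest marker of that pool had 4.65%, so the place of Tex14 above it is not secure against counting error.

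**Figure D2:**
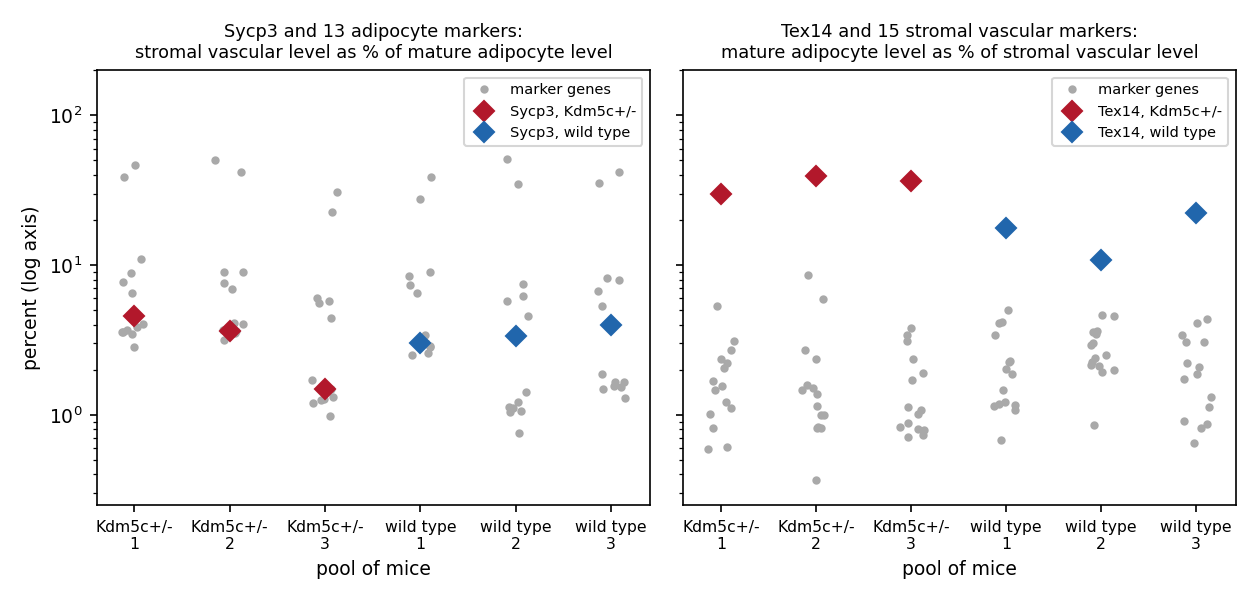
Left, stromal vascular level as a percent of mature adipocyte level for Sycp3 and 13 adipocyte markers in each of the 6 pools of mice. Right, mature adipocyte level as a percent of stromal vascular level for Tex14 and 15 stromal vascular markers. Both axes are log scaled, diamonds are the germ cell genes and grey points the markers: Sycp3 lies among its markers, and Tex14 above all of its markers in each pool. The wild-type points of Tex14 rest on 8, 3 and 8 mature adipocyte reads.

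Both genes share their place in the genome with another gene. Sycp3 (ENSMUSG00000020059.9, chr10:88459569-88473236, plus strand in GRCm38) lies wholly within Chpt1, a choline phosphotransferase gene of phospholipid synthesis on the minus strand (chr10:88452745-88504073). Of 1264 Sycp3 exon bases 660 (52.2%) are also exon bases of Chpt1 on the other strand. The libraries are strand-specific, but the strand setting of the counting is not given in the sources used here, so reads of Sycp3 and Chpt1 cannot be told apart with certainty.

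Chpt1 averaged 1370 ± 119 CPM in Kdm5c+/- and 1280 ± 122 CPM in wild-type mature adipocytes, and 82.0 ± 18.4 CPM in Kdm5c+/- and 66.4 ± 19.9 CPM in wild-type stromal vascular libraries (SD, n = 3 each). It was higher in mature adipocytes by a log2 of 4.18 ± 0.15 (limma, adjusted p = 1.84e-10, where 87.8% of genes were called), the direction of Sycp3. Between the genotype labels Chpt1 was not called (log2 differences of 0.10 in mature adipocytes, adjusted p = 0.734, and 0.32 in stromal vascular cells, adjusted p = 0.771, limma). Sycp3 reads came to 1.50%, 1.02% and 1.75% of Chpt1 reads in Kdm5c+/- mature adipocytes, against 0.861%, 0.697% and 0.698% in wild type. The genotype groups did not overlap in this share in mature adipocytes. Chpt1 itself differed little between the labels there, so the share largely repeats the Sycp3 difference and adds no separate evidence. In stromal vascular libraries the share was 1.09%, 0.549% and 0.541% in Kdm5c+/- and 0.415%, 0.579% and 0.547% in wild type, with overlap. Between the fractions, mature adipocytes were above stromal vascular cells relative to Chpt1 in wild type without overlap, and in Kdm5c+/- the ranges overlapped. How many of the reads assigned to Sycp3 arose from Chpt1 was not tested.

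Tex14 (ENSMUSG00000010342.16, chr11:87405065-87555823, plus strand, 5014 exon bases) starts 110 bases from the start of Rad51c, a recombination repair gene on the minus strand (chr11:87376645-87404954), so that the promoter window above covers both starts. The TTCCCGC letters straddle the annotated start of Rad51c. Rad51c also was lower in mature adipocytes (log2 difference -1.02, limma adjusted p = 1.04e-06). But it reached the filter through stromal vascular libraries alone, as 2266 genes did. Of these, 99.2% were called lower and 0 higher, so the call was nearly fixed by the filter. The Rad51c level was 0.463 ± 0.0276 CPM in Kdm5c+/- and 0.214 ± 0.118 CPM in wild-type mature adipocytes, and 1.50 ± 0.345 CPM in Kdm5c+/- and 1.93 ± 0.328 CPM in wild-type stromal vascular libraries (SD, n = 3 each).

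Between genotype labels in stromal vascular cells, Rad51c had a log2 difference of -0.23, which was not called (limma, adjusted p = 0.755) and has the opposite sign to that of Tex14. In mature adipocytes Rad51c did not reach the filter, and all 3 Kdm5c+/- libraries (0.431 to 0.480 CPM) lay above all 3 wild-type libraries (0.124 to 0.348 CPM), the direction of Tex14. These Rad51c values rest on 13, 12 and 11 reads in Kdm5c+/- and 3, 5 and 9 in wild type. Of all genes listed, 7.86% were likewise higher in every Kdm5c+/- mature adipocyte library. Tex14 gave 1.90, 3.17 and 3.48 reads per Rad51c read in Kdm5c+/- stromal vascular libraries and 0.933, 0.429 and 0.884 in wild type, without overlap. In mature adipocytes the values were 2.08, 4.25 and 3.27 in Kdm5c+/- and 2.67, 0.6 and 0.889 in wild type, where the first wild-type library, with 3 Rad51c reads, overlapped the Kdm5c+/- range. The next listed genes within 50 kb were Gnptab (fraction log2 difference 1.298, adjusted p = 1.97e-08) and Mybpc1 (-1.09, 9.33e-06) near Sycp3, and Ppm1e (-2.62, 3.63e-10) and Mtmr4 (-0.25, 0.00627) near Tex14, all by limma. Mybpc1 and Ppm1e reached the filter through stromal vascular libraries alone, so their fraction calls, like that of Rad51c, were nearly fixed by the filter. Mtmr4 turned to 0.13 with median-of-ratios scaling. None of these neighbours was called between genotype labels, where 0 of 11913 genes were in mature adipocytes and 1 of 13792 in stromal vascular cells.

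**Figure D3:**
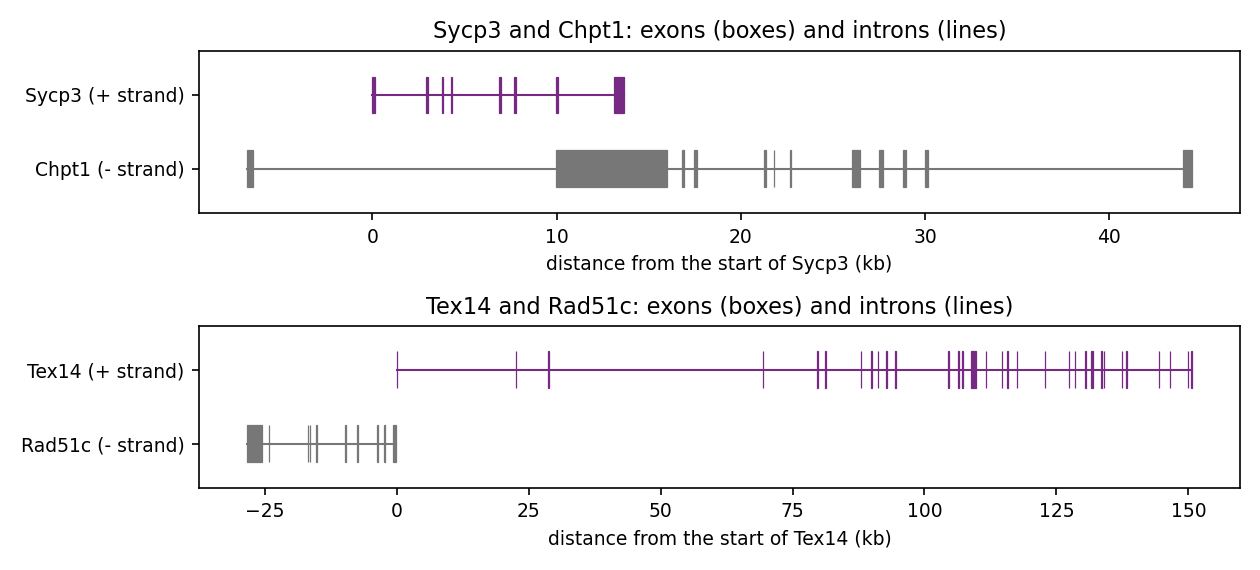
Exons (boxes) and introns (lines) of Sycp3 with Chpt1, and of Tex14 with Rad51c, against distance from the start of the germ cell gene in kb. The last exons of Sycp3 overlap a long Chpt1 exon on the other strand, and the starts of Tex14 and Rad51c are 110 bases apart.

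**Figure D4:**
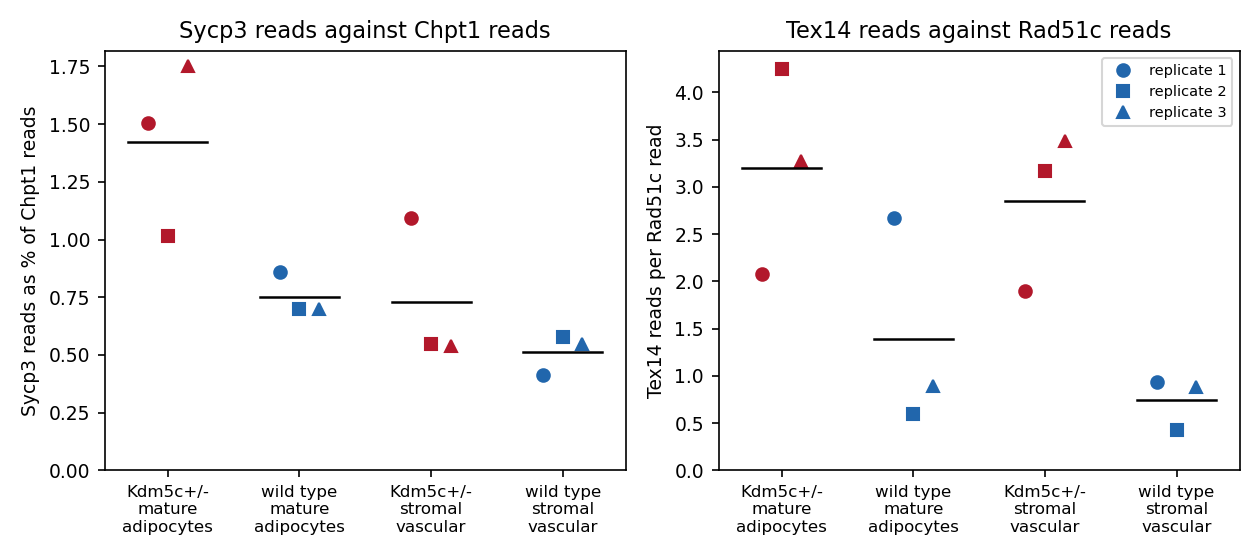
Left, Sycp3 reads as a percent of Chpt1 reads; right, Tex14 reads per Rad51c read. Points are libraries, lines are means of 3, and both axes start at 0. Sycp3 is apart by genotype label in mature adipocytes (1.02% and above in Kdm5c+/-, at most 0.861% in wild type) and Tex14 in stromal vascular cells (1.90 and above in Kdm5c+/-, at most 0.933 in wild type).

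Other germ cell genes were read from lists of the same pathways, 143 genes in all, of which 78 had a row, 76 besides Sycp3 and Tex14, and the rest were not analysed here. Without the cytokinesis genes, which all dividing cells use, 58 remained, and 38 of them averaged under 1 CPM. By mean CPM per kilobase, 0 of the 58 lay above Sycp3 in Kdm5c+/- mature adipocytes and 3 did in wild type, namely the germ granule gene Tdrd7, the RNA-binding gene Cpeb1 and the chaperone gene Hspa2. Tdrd7, at 14.5 CPM per kilobase in Kdm5c+/-, was within the spread of Sycp3 at 15.4. Tex14 had 12 of the 58 above it in Kdm5c+/- and 24 in wild-type stromal vascular cells. The genotype log2 differences of the 58 ran from -0.34 (Meiob) to 0.40 (Ctcfl) in mature adipocytes, with a median of 0.018, and from -0.30 (Hspa2) to 0.46 (Rec114) in stromal vascular cells, with a median of 0.077. Sycp3 and Tex14 at 0.92 and 0.98 in mature adipocytes, and Tex14 at 1.10 in stromal vascular cells, lay outside those ranges, and were chosen for such differences. The log2(CPM + 1) scale keeps the differences of genes near 0 small whatever their ratio, so these ranges do not compare ratios.

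**Figure D5:**
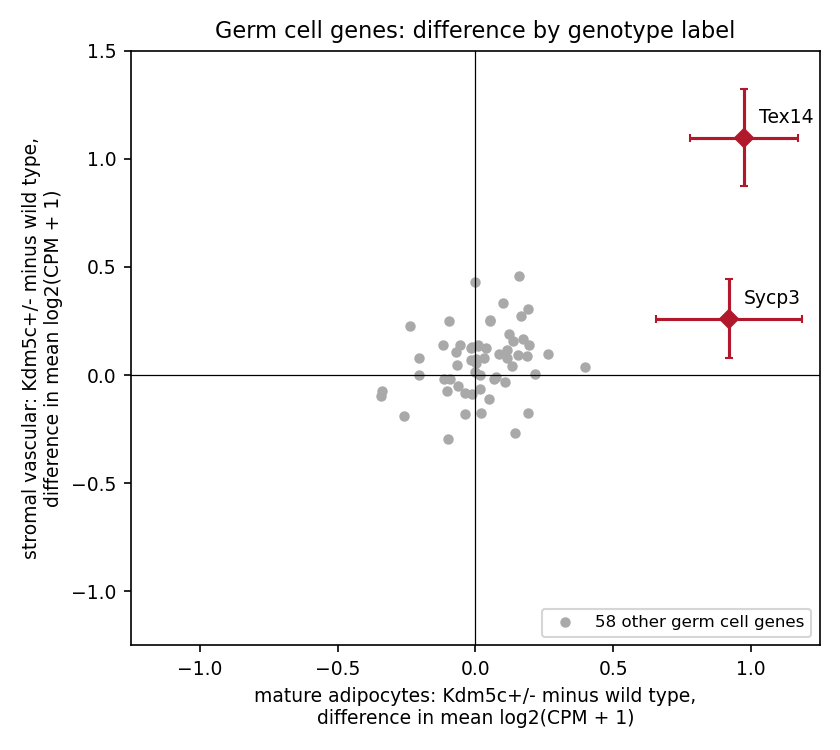
Difference in mean log2(CPM + 1), Kdm5c+/- minus wild type, in mature adipocytes (horizontal) and stromal vascular cells (vertical) for Sycp3 and Tex14 (red, bars are SE, 3 libraries per group) and 58 other germ cell genes (grey). The grey points lie between -0.34 and 0.46 on both axes, and 38 of these genes average under 1 CPM, where this scale keeps differences small.

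No other germ cell gene was called between the genotype labels: 0 of 24 tested in mature adipocytes, 0 of 42 in stromal vascular cells and 0 of 44 for the difference between fractions (limma, 1, 2 and 1 at an unadjusted p under 0.05, and 0 with edgeR). Over all genes the limma calls were 0 of 11913, 1 of 13792 and 0 of 14193, so these counts do not set the germ cell genes apart. By overlap of libraries, 1 of the 58 genes (1.72%, where 7.86% of all genes listed were) was higher in every Kdm5c+/- mature adipocyte library. It was Prdm9, the histone methyltransferase that marks recombination hotspots. Its level was 14.1, 18.7 and 14.7 CPM in Kdm5c+/-, against 13.4, 14.0 and 12.7 CPM in wild type. The 3 genes lower in every one (5.17%, where 10.8% of all genes were) were Meiob, Mlh3 and Ythdc2, the last a meiotic RNA helicase with a log2 difference of -0.34 (limma, adjusted p = 0.296).

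In stromal vascular cells 8 of the 58 genes (13.8%) were higher in every Kdm5c+/- library, where 3.95% of all genes listed were: the cohesin gene Stag3, the recombinase gene Dmc1, the double-strand break gene Rec114, the histone reader gene Zcwpw1, the piRNA genes Piwil2 and Pld6, Slc25a31 and Xlr. All had low levels, at most 3.94 CPM in any of these libraries. Zcwpw1 had 3.69, 3.94 and 3.78 CPM in Kdm5c+/- and 2.68, 2.42 and 2.58 CPM in wild type, a log2 difference of 0.43 (limma, adjusted p = 0.617). Rec114 had 0.767, 1.10 and 0.781 CPM in Kdm5c+/- and 0.447, 0.135 and 0.545 CPM in wild type, a log2 difference of 0.46. Pld6 was at 0 in every wild-type stromal vascular library and at 0.0365, 0.137 and 0.0411 CPM in Kdm5c+/-, from 1, 3 and 1 reads. Hspa2 was the 1 gene lower in every Kdm5c+/- library (1.72%, where 8.75% of all genes were). None of the 58 was higher in every Kdm5c+/- library of both fractions, as Tex14 was. Of all genes listed only 0.486% were, so a count of 0 among the 58 does not set Tex14 apart. The lists were chosen with earlier results of these libraries known, and these shares carry no test.

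Among the partners of Sycp3 on the chromosome axis, 7 had a row and 3 were tested between fractions. Rec8, the meiotic cohesin subunit, was lower in mature adipocytes (-0.82, limma adjusted p = 8.02e-06), and so was Syce2, a central element gene (-0.57, 0.00802, and 0.127 with edgeR). Both reached the filter through stromal vascular libraries alone. Sycp2, which forms the lateral elements together with Sycp3, averaged 1.70 ± 0.882 CPM in Kdm5c+/- and 1.58 ± 0.713 CPM in wild-type mature adipocytes, and 2.57 ± 1.66 CPM in Kdm5c+/- and 1.80 ± 0.0274 CPM in wild-type stromal vascular cells (SD, n = 3 each). Its genotype differences of 0.053 in mature adipocytes (adjusted p = 0.947, limma) and 0.25 in stromal vascular cells (0.846) were not called. The other 4 did not reach the filter. Without it, 14190 of all 16670 genes listed were called in either direction (13953 with edgeR). Of the 7 axis genes, 2 were then called higher in mature adipocytes and 2 lower (2 and 1 with edgeR). The chromosome axis gene Hormad2, one of the higher, averaged 0.419 ± 0.240 CPM in Kdm5c+/- and 0.406 ± 0.149 CPM in wild-type mature adipocytes, and 0.0396 ± 0.0412 CPM in Kdm5c+/- and 0 in wild-type stromal vascular cells.

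For a gene that reached the filter in 1 fraction alone, the fraction call was nearly fixed by the filter. Over all genes, 99.2% of those that entered through stromal vascular cells alone were called, and 95.1% of those through mature adipocytes alone. Of the 44 other germ cell genes tested, 20 entered through stromal vascular libraries alone, and 2 through mature adipocytes alone. The other 22 reached 1 CPM in 3 libraries of each fraction. Of these 22, 7 were called higher in mature adipocytes and 11 lower (12 and 7 with median-of-ratios scaling, 13 and 6 with edgeR), where 32.1% of 11526 such genes were higher and 53.3% lower (85.4% called).

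Among the recombination genes, 4 entered through both fractions. Prdm9 (1.13, limma adjusted p = 3.63e-07), Zcwpw1 (0.79, 5.65e-07) and the mismatch repair gene Mlh3 (0.45, 0.000127) were higher in mature adipocytes, and the recombination accessory gene Mnd1 (-1.05, 2.48e-06) was lower. Of the germ cell RNA genes 4 entered through both. The piRNA gene Tdrkh (2.08, 2.35e-10) and Pnldc1 (2.39, 5.98e-08), whose protein trims piRNA ends, were higher. Ythdc2 (-0.68, 1.47e-06) was lower, and so was Tdrd7 (-0.20, 0.0150), which turned to higher with median-of-ratios scaling and edgeR. Of the remaining germ cell genes Cpeb1 (1.21, 7.03e-07) was higher and Hspa2 (-0.94, 5.09e-05) lower. In the main limma fit the median log2 difference of all genes between fractions was -0.45. It moved to -0.073 with median-of-ratios scaling and to -0.0075 with edgeR. The split of all calls was 4072 higher (28.7% of those tested) and 8394 lower (59.1%) with limma, 5747 and 6439 with median-of-ratios scaling, 6063 and 6145 with edgeR.

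Of the cytokinesis partners of Tex14, 18 were tested, and 9 of them entered through stromal vascular libraries alone, among them Cep55, Kif23 and Prc1. Of the other 9, 7 were called lower in mature adipocytes and 1 higher, where 53.3% of 11526 such genes were lower and 32.1% higher. With median-of-ratios scaling 4 of the 9 were lower and 3 higher, and with edgeR 3 and 4. Cep55, the midbody protein that Tex14 binds, averaged 0.362 ± 0.196 CPM in Kdm5c+/- and 0.526 ± 0.122 CPM in wild-type mature adipocytes, and 2.78 ± 0.647 CPM in Kdm5c+/- and 4.06 ± 0.709 CPM in wild-type stromal vascular cells (SD, n = 3 each). It was lower in mature adipocytes by fraction (-1.60, limma adjusted p = 7.53e-08), as were the central spindle genes Kif23 (-3.42, 3.18e-11), Prc1 (-3.07, 2.50e-10) and Racgap1 (-2.30, 1.14e-08). Tsg101, of the membrane scission machinery, was higher (0.67, 4.81e-07). By genotype label 0 of 9 tested in mature adipocytes and 0 of 18 in stromal vascular cells were called, where 0 of 11913 and 1 of 13792 of all genes were. Cep55 had a difference of -0.43 in stromal vascular cells (limma, adjusted p = 0.644), opposite in sign to Tex14.

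All 22 genes of the repressor list were tested, and 0 were called between the genotype labels in either fraction (limma, 0 and 2 at an unadjusted p under 0.05, and 0 with edgeR). Of all genes tested, 0 of 11913 were called in mature adipocytes and 1 of 13792 in stromal vascular cells. E2f6 averaged 27.6 ± 1.19 CPM in Kdm5c+/- and 29.3 ± 0.981 CPM in wild-type mature adipocytes, and 18.9 ± 0.326 CPM in Kdm5c+/- and 18.5 ± 1.31 CPM in wild-type stromal vascular cells (SD, n = 3 each). Between fractions 20 of 22 were called, where 87.8% of all genes were. E2f6 (0.58, limma adjusted p = 4.72e-07) and Yaf2 (0.35, 3.95e-05) were the 2 higher in mature adipocytes and 18 were lower, 6 and 11 with median-of-ratios scaling, beside 28.7% higher and 59.1% lower over all genes. Dnmt1, the maintenance DNA methyltransferase (-2.08, 2.65e-11), and its partner Uhrf1 (-2.20, 8.04e-08) were among the lower ones. Dnmt1 averaged 20.1 ± 0.863 CPM in Kdm5c+/- and 22.4 ± 0.665 CPM in wild-type mature adipocytes, and 90.2 ± 9.75 CPM in Kdm5c+/- and 96.9 ± 7.24 CPM in wild-type stromal vascular cells.

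The genes whose pattern was most like each gene were ranked by Pearson r of log2(CPM + 1) over the 12 libraries among 14192 genes, as a description. For Sycp3 these were Dct (r = 0.996), Romo1 (0.994), Gm12338 (0.994), Ndufb9 (0.993) and Slc25a22 (0.993). With the mean of each fraction subtracted they were Ndufb9 (0.946), Dct (0.932), Taf10 (0.912), Mdh2 (0.909) and Romo1 (0.905), of which Ndufb9, a subunit of respiratory complex I, averaged 210.0 CPM in Kdm5c+/- and 168 CPM in wild-type mature adipocytes. For Tex14 they were C4a (0.939), which has a near-identical copy that reads may be split with, Tmem86b (0.926), the nucleic acid sensor gene Zbp1 (0.919), the interferon-induced Oas1a (0.895) and Thap2 (0.893). With the fraction means subtracted they were Zfp783 (0.944), Tsacc (0.899), C4a (0.897), Phyhd1 (0.892) and Sirt4 (0.892). Sycp3 and Tex14 had r = -0.54 with each other, and 0.57 with the fraction means subtracted. The libraries share 4 groups and the pools, so these r values are not independent evidence of a relation.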

How the data were processed

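RNA of mature adipocytes and stromal vascular cells was sequenced in 12 libraries with a strand-specific NuGEN kit, per the labels' protocols. STAR 2.7.2a, edgeR 3.26.8 and GRCm38 are named in the submitters' processing notes, and the sources used here name no counting tool, annotation or strand setting. The authors deposited CPM values. In each library 100% of the values were whole multiples of 1 step within 0.05 read, so whole read counts were recovered from the deposited CPM (21836878 to 29434125 reads), and each gene listed exceeded 0.1 CPM in 3 or more libraries. Of the symbols, 23 had been turned into dates and are not named. Replicates are pools of 2 mice, 3 per group. The p-values measure the spread between pools.

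Tests used limma 3.58.1 under R 4.3.3 (lmFit and a trended, robust eBayes), with log2(CPM + 1) as the response. A gene entered a fit when 3 or more of its libraries reached 1 CPM. Tests were two-sided, with Benjamini-Hochberg adjustment over all genes tested and a threshold of 0.05. Genotype labels were compared within each fraction (6 libraries), and fractions and the difference between them over 12 libraries with 1 mean per group. Values of Sycp3 and Tex14 are differences of group means with SE from the group SDs, without a filter. Alternatives were a pseudocount of 0.25, no filter, median-of-ratios scaling, edgeR 4.0.16 (quasi-likelihood) on whole reads, a replicate block and leaving out each library; 2 edgeR variants and an adipocyte marker sum without Cfd and Fabp4 were added after seeing the data. Fractions of a pool are taken as pairs in the ratios by pool and in the replicate block over 12 libraries. The main fits over 12 libraries and the SE of Sycp3 and Tex14 do not use this pairing. Deviations of paired fractions from their group means had correlations of 0.169 to 0.278 (6 pairs, each over genes). The code was tested on simulated data. Tables were handled in Python 3.11.15 (numpy 2.4.6, pandas 2.3.3) and figures drawn with matplotlib 3.10.9.

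Positions came from GENCODE mouse release 21, in which 15866 symbols (95.2%) matched, and promoter sequences from RefSeq on GRCm38.p6. Sycp3, Tex14 and all gene lists were chosen with earlier results of these data known. Beside them, genes were named by a rule: every germ cell gene called by genotype, up to 5 per list by mean CPM and 5 by smallest p, neighbours within 50 kb, and the 5 genes most alike by each measure. Genes singled out by overlap of libraries were named after their values were seen.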

Additional observations from a re-analysis of the deposited data

How the results depend on the processing

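Log2 differences of genes near 0 depend on the scale. With a pseudocount of 0.25, Sycp3 had 0.51 between genotype labels in stromal vascular cells and 4.32 between fractions. Tex14 then had 1.79 between labels in mature adipocytes, 1.43 in stromal vascular cells, -1.55 between fractions and 0.36 for the difference between fractions. With edgeR on whole reads, Sycp3 had 5.37 between fractions and 0.083 for the difference between fractions, and Tex14 had 1.59 between labels in stromal vascular cells, -1.52 between fractions and 1.02 for the difference. With edgeR and no filter, Sycp3 had 0.93 in stromal vascular cells, 5.37 between fractions and 0.073 for the difference; Tex14 had 2.63 in mature adipocytes, 1.59 in stromal vascular cells, -1.52 between fractions and 1.00 for the difference, and 61 other germ cell genes were called between fractions, against 40 with the filter, since more genes were tested. Mtmr4 turned to 0.13 between fractions with median-of-ratios scaling, and to 0.22 with edgeR, with edgeR without the filter and with edgeR and the block. With the replicate block, and with edgeR and the block, 0 genes were called between genotype labels in stromal vascular cells: Rps4l was lost (limma, adjusted p = 0.345 with the block). Libraries of different genotype labels share only a number, and the block on pools moved the fraction calls from 12466 to 12503.

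Leaving out each library gave 0 to 3 calls between labels in mature adipocytes, 0 to 0 in stromal vascular cells and 0 to 7 for the difference between fractions. The 3 (Gbp11, Mycl and Sox4) and the 7 came without the third Kdm5c+/- mature adipocyte library. Sycp3 then ranged over 0.80 to 1.14 between labels in mature adipocytes, 0.088 to 0.39 in stromal vascular cells, 3.25 to 3.43 between fractions and 0.53 to 0.88 for the difference. Tex14 ranged over 0.82 to 1.12, 0.95 to 1.24, -1.07 to -0.92 and -0.28 to 0.025. Depth limits Tex14 in wild-type mature adipocytes (3 to 8 reads) and Sycp3 in stromal vascular cells (6 to 28 reads). The cause of these shifts was not tested.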

Other observations

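Among the 58 other germ cell genes, 43 had a RefSeq promoter window of 300 bases. The E2F letters GCGGGAA were found on either strand in 11 of them (25.6%), against 5.29% of 27025 genes with a window, and the E-box letters CACGTG in 12 (27.9%), against 8.09%. Of the 11 E2F genes, Stag3, Rec114, Slc25a31 and Xlr were among the 8 genes higher in every Kdm5c+/- stromal vascular library. Prdm9 was higher in every Kdm5c+/- mature adipocyte library. The remaining E2F genes, Ddx4, Hsf2bp, Msh5, Spata22, Syce2 and Tdrd5, overlapped between the labels in both fractions. Dmc1, Zcwpw1, Piwil2 and Pld6, the rest of those 8, were not among the E2F genes. Ddx4, Rec114, Slc25a31, Stag3 and Syce2 held both sets of letters, as Sycp3 did. These shares carry no test, and the lists were chosen with results known.

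Genes that carry a testis expressed (Tex) name without being specific to germ cells were also listed. By mean CPM per kilobase, 5 of 6 lay above Tex14 in Kdm5c+/- stromal vascular cells and 6 of 6 in the other groups. Tex2 averaged 180.0 ± 24.8 CPM in Kdm5c+/- and 184 ± 23.1 CPM in wild-type mature adipocytes, and 64.4 ± 2.49 CPM in Kdm5c+/- and 64.4 ± 1.90 CPM in wild-type stromal vascular cells (SD, n = 3 each). Of the 6 such genes 6 were called between fractions, against 87.8% of all genes. In mature adipocytes 3 were higher, including Tex2 (1.48, limma adjusted p = 2.75e-09) and Tex264 (0.49, 7.10e-06), and 3 lower, among them Tex9 (-1.22, 7.47e-06). With edgeR 3 were higher and 2 lower. Between genotype labels 0 of 6 were called in either fraction (limma, 0 at an unadjusted p under 0.05, and 0 with edgeR). Over all genes 0 of 11913 were called in mature adipocytes and 1 of 13792 in stromal vascular cells.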
